A study of Mus musculus with 6 samples.

Results

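The metallothionein genes Mt1 and Mt2, the zinc transporter genes Slc39a14, Slc39a4, Slc30a1 and Slc30a10, and Mtf1, the gene of the metal-responsive transcription factor, were followed through 6 RNA sequencing libraries of mice lacking Abcg8. The 7 genes were taken by name from tables of 33639 gene symbols, and all 7 were found. They were chosen because Mt1 and Mt2 differed between livers, so their liver values are a description and support no test. Male mice, per the labels, lacked Abcg8 in the whole body and ate little sterol until weaning, together with 0.005% ezetimibe, which blocks the uptake of sterols in the gut. They then ate 1 of 4 diets for 12 weeks. The liver groups were high sitosterol, ergosterol, stigmasterol and low sitosterol, and the adrenal groups were high sitosterol and low sitosterol, with 1 mouse and 1 library each. All groups carry the same deletion, and wild-type mice were not analysed here. The question named for the series is what feeding sterols besides cholesterol does to the genes that liver expresses.

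Metallothioneins are small cysteine-rich proteins that hold zinc and copper in the cytosol and buffer their free levels. Their genes are switched on by MTF1, which binds metal response elements in DNA when zinc is plentiful, and also by glucocorticoids, inflammatory cytokines and oxidants. Proteins of the SLC39 family (ZIP) carry zinc and related metals into the cytosol, and those of the SLC30 family (ZnT) carry them out. In liver, ZIP14 takes up zinc during inflammation and also manganese and iron, and ZnT10 exports manganese.

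Totals ran from 41546507 to 50573364 estimated counts, and a count of 0 allowed up to 0.0593 to 0.0722 counts per 1000000 (CPM), taking 3 counts as the limit. Levels are given as scaled CPM, which divides by the library total and a factor (TMM) that lines up most genes, or as TPM, a share of transcripts corrected for length that allows genes to be compared. The factor was 1.35 for the stigmasterol liver and 0.83 to 0.95 for the other livers, so ratios with the stigmasterol liver rest most on it. Abcg8, the deleted gene, had in liver 490 counts with high sitosterol, 394 with ergosterol, 788 with stigmasterol and 51 with low sitosterol, and 3 and 2 in the high and low sitosterol adrenals. The deleted part is not stated, so these totals do not check the deletion. The 10 hepatocyte markers summed to 65096 to 151355 scaled CPM in livers and to 79.0 to 108 in adrenals. The Y-linked pair Eif2s3y and Ddx3y stood at 34.7% to 49.6% of its X-linked copies in livers but at 0.00811% and 0.0106% in the adrenals, which went against their male label. The low sitosterol liver carried adrenal cortex genes at 0.372% of what adrenals had (median of 8 genes), compared with 0.0138% to 0.0282% in the other livers. At that share, adrenal RNA would bring 0.184 CPM of Mt1. As each group is 1 library, no value can be checked in a replicate. Intervals are exact 95% intervals that cover counting error only, and each comparison is between libraries, not diets.

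Mt1 and Mt2 lie beside each other on mouse chromosome 8 (GRCm38). Mt2 spans 94172664 to 94173568 and Mt1 spans 94179082 to 94180327, both on the plus strand, with 5513 bases between them. Windows of 300 bases around the first annotated start, from RefSeq (GRCm38.p6), were found for 5 of the 7 genes: Mt1, Mt2, Slc30a1, Slc30a10 and Mtf1. Those of both metallothioneins are shown because their levels moved together, and those of Slc30a1 and Slc30a10 because these genes did not follow. Capitals mark the core of the metal response element, searched as TGCACNC and TGCGCNC on both strands.
Mt1 promoter, chr8:94178839-94179138, plus strand: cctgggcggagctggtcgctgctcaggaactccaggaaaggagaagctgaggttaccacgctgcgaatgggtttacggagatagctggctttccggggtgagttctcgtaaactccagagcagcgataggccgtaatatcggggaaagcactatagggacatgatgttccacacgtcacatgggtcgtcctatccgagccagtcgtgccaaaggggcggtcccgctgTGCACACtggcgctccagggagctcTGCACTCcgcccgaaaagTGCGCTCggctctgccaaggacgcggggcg
Mt2 promoter, chr8:94172368-94172667, plus strand: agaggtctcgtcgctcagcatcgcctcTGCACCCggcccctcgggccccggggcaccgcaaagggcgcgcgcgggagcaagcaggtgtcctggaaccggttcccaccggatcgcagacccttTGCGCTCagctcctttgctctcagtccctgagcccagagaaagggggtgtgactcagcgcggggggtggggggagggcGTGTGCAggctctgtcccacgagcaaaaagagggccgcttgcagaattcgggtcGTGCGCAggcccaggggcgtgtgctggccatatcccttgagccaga
Slc30a1 promoter, chr1:191906531-191906830, plus strand: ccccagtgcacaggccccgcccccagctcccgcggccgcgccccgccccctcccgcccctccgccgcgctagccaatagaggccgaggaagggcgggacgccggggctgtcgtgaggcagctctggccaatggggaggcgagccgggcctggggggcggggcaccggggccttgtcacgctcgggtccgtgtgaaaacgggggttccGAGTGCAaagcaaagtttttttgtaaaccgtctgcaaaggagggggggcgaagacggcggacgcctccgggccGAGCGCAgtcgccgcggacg
Slc30a10 promoter, chr1:185454598-185454897, plus strand: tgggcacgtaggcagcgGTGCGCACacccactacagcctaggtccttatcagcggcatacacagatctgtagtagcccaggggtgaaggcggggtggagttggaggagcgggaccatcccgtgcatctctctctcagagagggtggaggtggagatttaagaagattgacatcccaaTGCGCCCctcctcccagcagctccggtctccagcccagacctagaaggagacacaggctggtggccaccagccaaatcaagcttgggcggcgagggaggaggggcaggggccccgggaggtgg

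The Mt1 window held 3 matches, at positions -23, 3 and 21 from the start, and the Mt2 window held 4, at -223, -128, -50 and 5. Slc30a1 had 2 and Slc30a10 had 3, of which a pair overlap on opposite strands as 1 run of capitals, while the Mtf1 window had 0. Of all 32851 windows of this length, 25.7% held at least 1 match, 7.11% at least 2, 1.97% at least 3 and 0.517% at least 4. The antioxidant element TGACNNNGC was matched once in the Mt2 window, at -79, and once in the Slc30a1 window, at -82, against 12.4% of all windows. Positions are counted from the start used for each window. GENCODE also places Mt1 starts at 94179211 and 94179241 and a Mt2 start at 94172860, beyond these windows. Bases past the ends of the windows were not searched, so a gene may hold elements that its window does not show. A match is a run of letters and shows no binding.

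In liver, both metallothioneins were highest with high sitosterol and lowest with ergosterol. Mt1 stood at 914 scaled CPM with high sitosterol, 34.3 with ergosterol, 398 with stigmasterol and 122 with low sitosterol. The same libraries held 509.9, 8.17, 247 and 70.4 scaled CPM of Mt2. The order of the livers was the same for both genes, and no pair of counting intervals overlapped within either gene. By TPM, Mt1 was the 57th most abundant gene symbol of the high sitosterol liver, at 2590 TPM, and the 1060th of the ergosterol liver, at 96.7 TPM. Together the pair made up 0.425% of all TPM with high sitosterol, 0.0128% with ergosterol, 0.303% with stigmasterol and 0.0480% with low sitosterol.

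**Figure D1:**
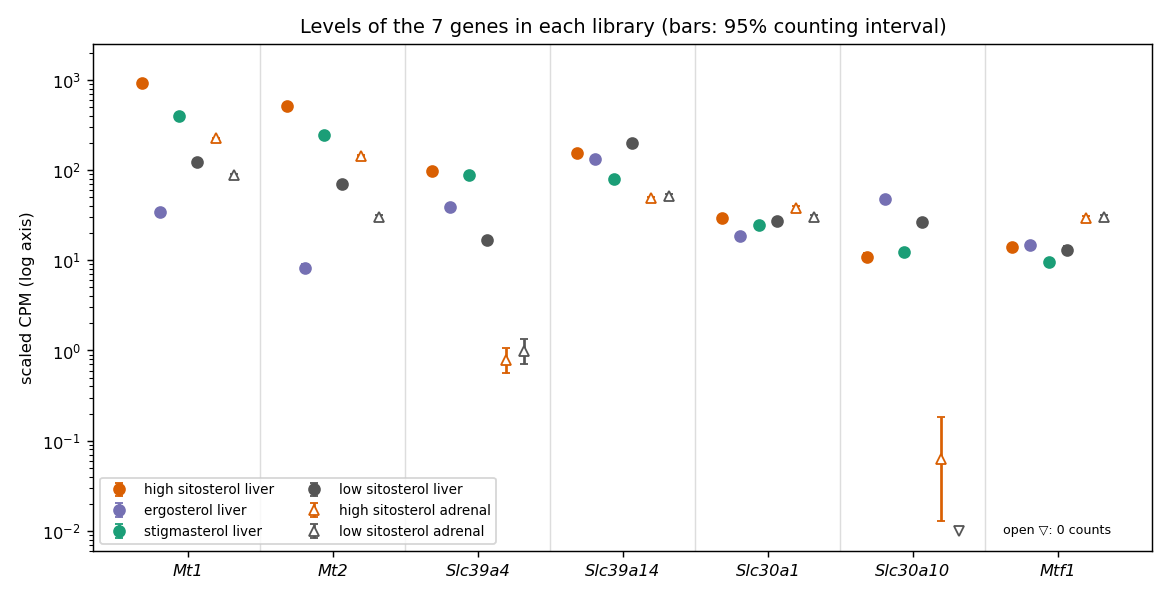
Scaled CPM (log axis) of the 7 genes in each of 6 libraries, with 95% counting intervals as bars, circles for livers and open triangles for adrenals. Mt1 is at 914 in the high sitosterol liver and 34.3 in the ergosterol liver. In the livers Slc30a1 lies between 18.7 and 29.4 and Mtf1 between 9.50 and 14.6. Livers and adrenals were scaled separately, so their points are not on the same scale.

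Against the low sitosterol liver, Mt1 was 7.48-fold higher with high sitosterol (log2 2.90, interval 2.86 to 2.94) and Mt2 was 7.24-fold higher (log2 2.86, 2.80 to 2.91). With stigmasterol, Mt1 was 3.26-fold and Mt2 3.51-fold higher (log2 1.70 and 1.81). Library totals gave log2 2.40 and 2.51, with the median of all genes at 0.77 in place of 0.08. With ergosterol the pair lay on the other side: Mt1 was 3.57-fold lower (log2 -1.84, -1.92 to -1.75) and Mt2 was 8.60-fold lower (log2 -3.10, -3.27 to -2.95). Neutrophil markers, of which 4 of 8 reached 1 CPM in a liver, were lower for 4 of 4 with ergosterol (median log2 -2.98). All 8 summed to 8.01 scaled CPM with high sitosterol, 1.59 with ergosterol, 8.55 with stigmasterol and 8.06 with low sitosterol, with Ly6g, Retnlg and Camp at 0 with ergosterol. Their part in the metallothionein values was not tested. The 3 liver comparisons of Mt1 and Mt2 share the low sitosterol library, so an unusual level there would move all of them. Calls of higher or lower needed a ratio of 2-fold or more and an interval clear of equality. With high sitosterol 3 of the 7 genes were higher and 1 was lower, where 8.67% of 13378 genes were higher and 4.3% lower. With ergosterol 1 was higher and 2 were lower, against 6.05% and 5.81% of genes. With stigmasterol 3 were higher and 2 were lower, against 21.7% and 7.79%. The genes were chosen on these livers, so nothing is read from those counts.

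**Figure D2:**
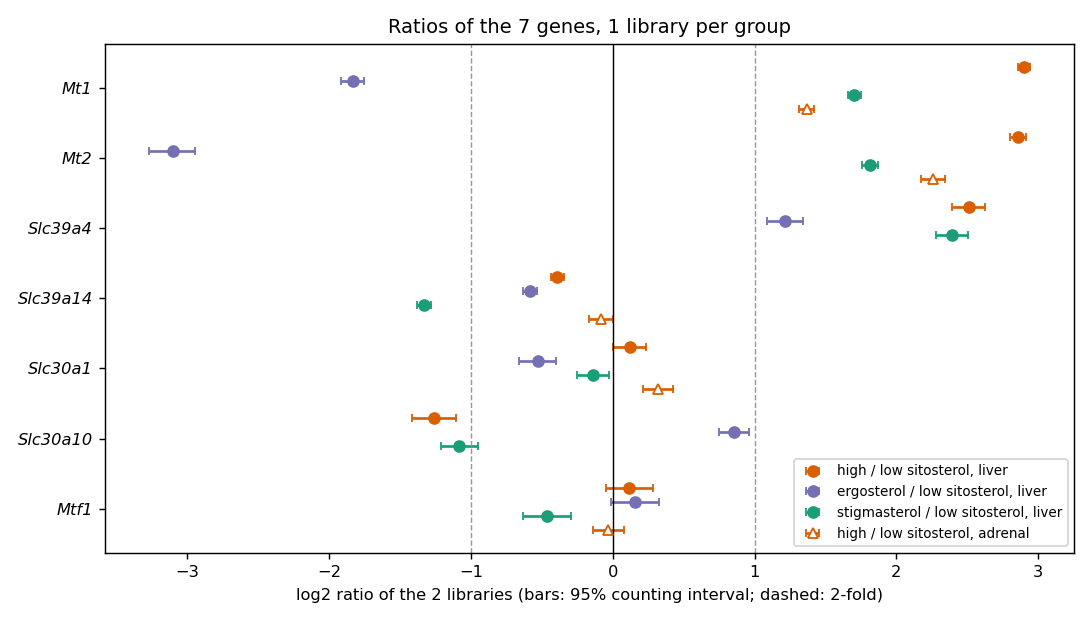
Log2 ratios of the 7 genes between pairs of libraries, with 95% counting intervals as bars and dashed lines at 2-fold. Mt1 and Mt2 lie right of the upper line for high sitosterol in both tissues and for stigmasterol, and left of the lower line for ergosterol, while genes below 1 CPM in both adrenals have no triangle.

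Between the high sitosterol, ergosterol and stigmasterol livers the metallothioneins also differed. Doses are not stated in the labels, so the values stand side by side without a matched dose. Stigmasterol differs from sitosterol by a side-chain double bond, and ergosterol is a fungal sterol with a methyl in place of the ethyl side-chain group and further double bonds. The ergosterol liver held 26.7-fold less Mt1 and 62.3-fold less Mt2 than the high sitosterol liver, and 11.6-fold and 30.2-fold less than the stigmasterol liver. The stigmasterol liver held 2.29-fold less Mt1 (log2 -1.20) and 2.06-fold less Mt2 (log2 -1.04) than the high sitosterol liver. Scaled by library totals, these stigmasterol ratios came to -0.70 and -0.55 on the log2 scale, so that this difference was under 2-fold. Ergosterol against high sitosterol had 1 of the 7 genes higher and 3 lower, where 6.18% of all genes were higher and 8.96% lower. Ergosterol against stigmasterol also had 1 higher and 3 lower, with 7.09% and 19.4% of all genes. Stigmasterol against high sitosterol had 0 higher and 2 lower, with 16.5% and 5.59%.

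The balance between the pair differed between libraries. Mt1 made up 64.2% of the summed counts of the pair in the high sitosterol liver (95% exact interval 63.8% to 64.6%), 80.7% in the ergosterol liver (78.9% to 82.5%), 61.7% in the stigmasterol liver and 63.5% in the low sitosterol liver. In the adrenals it made up 61.0% with high sitosterol and 74.4% with low sitosterol. The ergosterol liver and the low sitosterol adrenal, which had the fewest counts of the pair, had the highest shares of Mt1. By TPM the pair was about as low in the low sitosterol liver (480.4) as in the low sitosterol adrenal (499), without a high share. Transcripts of Mt1 and Mt2 share 0 runs of 31 bases, so their reads can be told apart. However, 330 of the 573 distinct runs of Mt2 also lie on the opposite strand in the antisense gene Gm45774, which has no row of its own in the tables used here. Strand is not recorded by the kit used, so Mt2 counts may hold antisense reads, and the part of this in the Mt2 values was not tested.

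The rest of the cluster was near silent in liver. Mt3, the metallothionein of brain, had 5 counts in the low sitosterol liver and 0 in each other liver, and Mt4, that of stratified epithelium, had 0 in all 6 libraries. Nearby genes did not show the pattern of the pair. Nudt21, Ogfod1 and Bbs2, the next protein-coding genes before the cluster, lay between -0.05 and 0.93 on the log2 scale in the 3 liver comparisons. After the cluster, Nup93, a nuclear pore subunit, stood at 0.41 with high sitosterol, 0.19 with ergosterol and 1.47 with stigmasterol, relative to low sitosterol, and the ER stress protein gene Herpud1 at -0.64, -0.31 and -1.44.

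**Figure D3:**
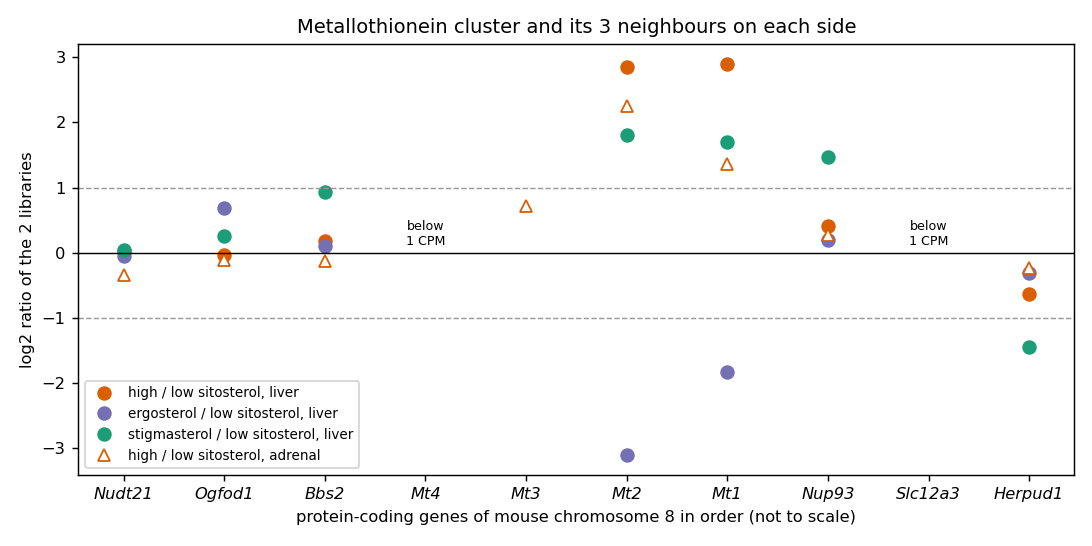
Log2 ratios for the 4 metallothionein genes and 3 protein-coding neighbours on each side, in chromosome order and not to scale, with circles for livers, open triangles for adrenals and dashed lines at 2-fold. Mt1 and Mt2 stand beyond 2-fold in every comparison drawn, Nup93 and Herpud1 do so only for stigmasterol, and genes below 1 CPM in a tissue have no point there.

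Mtf1, which encodes the zinc-sensing activator of both metallothioneins, was low and nearly level. It stood at 14.2 scaled CPM with high sitosterol, 14.6 with ergosterol, 9.50 with stigmasterol and 13.1 with low sitosterol. Intervals of the first, second and last overlapped, and the stigmasterol liver was lower (log2 -0.46). That direction turned to 0.23 with library totals. Mtf1 (chromosome 4, 124802104 to 124849800, plus strand) shares 721 bases with the gene 1110065P20Rik on the other strand, so some reads may belong to either.

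Slc39a4 had the widest range over the livers of the 4 transporters. It encodes ZIP4, best known as the zinc importer of the intestinal lining, whose human form is lost in acrodermatitis enteropathica. Its levels were 96.6 scaled CPM with high sitosterol, 39.3 with ergosterol, 89.0 with stigmasterol and 17.0 with low sitosterol. All 3 other livers stood above the low sitosterol liver, by 5.69-fold with high sitosterol (log2 2.51, 2.39 to 2.63), 2.32-fold with ergosterol (log2 1.21) and 5.25-fold with stigmasterol (log2 2.39). Unlike Mt1 and Mt2, it was higher with ergosterol. The high sitosterol and stigmasterol livers differed by -0.12 on the log2 scale, which turned to 0.38 with library totals. Per length, Slc39a4 was the most abundant of 14 Slc39a genes in the high sitosterol liver, with 26.1% of their summed TPM, rank 2 in the stigmasterol liver with 23.2%, rank 4 in the ergosterol liver with 11.1% and rank 5 in the low sitosterol liver with 4.76%. Slc39a4 lies on chromosome 15 (76612383 to 76617384, minus strand), overlaps no annotated gene and shares 0 runs of 31 bases with another gene.

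The summed level of macrophage markers ran with Slc39a4 in liver by TPM. All 11 markers were detected in each liver, and they summed to 1169 scaled CPM with high sitosterol, 602 with ergosterol, 777 with stigmasterol and 379.5 with low sitosterol. Of the 11, 11 were higher and 0 lower with high sitosterol, where 8.67% of all genes were higher and 4.3% lower. With ergosterol the counts were 2 and 0, beside 6.05% and 5.81%. With stigmasterol they were 6 and 2, beside 21.7% and 7.79%. The 2 lower ones were the resident macrophage genes Clec4f, at 24.1 scaled CPM with stigmasterol against 79.5 with low sitosterol, and Vsig4, at 6.98 against 15.9. In the adrenals the same markers summed to 1166 TPM with high sitosterol and 725 TPM with low sitosterol, as against 270 to 1104 TPM in livers, but Slc39a4 was at 0.558 and 0.721 TPM there. Bile duct markers, of which 8 of 8 were detected, summed to 937 scaled CPM in the stigmasterol liver against 54.9 to 81.0 in the others. The 10 stellate cell and matrix markers summed to 1106 there against 174 to 230, with 8 of 10 higher than with low sitosterol, and 3 of 10 hepatocyte markers were lower. In such bulk samples fewer cells of a type and less RNA per cell cannot be told apart, and the part of these cells in the Slc39a4 values was not tested.

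**Figure D4:**
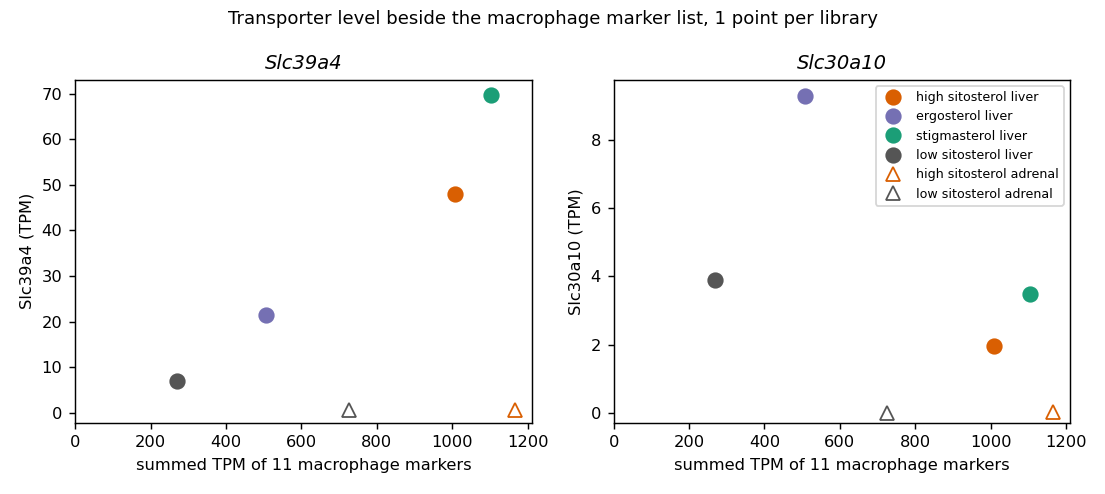
Level of Slc39a4 (left) and Slc30a10 (right) in TPM against the summed TPM of 11 macrophage markers, with circles for the 4 livers and open triangles for the 2 adrenals. Slc39a4 is highest in the 2 livers with the highest marker sums but stays under 1 TPM in both adrenals.

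Slc39a14 encodes ZIP14, the importer of zinc, manganese and iron that interleukin 6 raises in liver. It lies on chromosome 14 (70303469 to 70351425, minus strand). Its levels were 153 scaled CPM with high sitosterol, 134 with ergosterol, 79.8 with stigmasterol and 201 with low sitosterol. It stood below the low sitosterol liver in each, by log2 -0.39 with high sitosterol, -0.58 with ergosterol and -1.33 with stigmasterol. With library totals the last came to -0.64, so the 2-fold difference rests on the scaling. By TPM its levels lay closer together, at 34.9, 36.1, 29.2 and 38.1 in the same order of livers. As a share of all Slc39a TPM it made up 18.9% with high sitosterol, 18.7% with ergosterol, 9.71% with stigmasterol and 25.9% with low sitosterol, where it was the first of the family.

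The 2 exporters went separate ways. Slc30a1 encodes ZnT1, the plasma membrane zinc exporter and a known target of MTF1 in mouse. It stood at 29.4 scaled CPM with high sitosterol, 18.7 with ergosterol, 24.5 with stigmasterol and 27.0 with low sitosterol. It was lowest with ergosterol, as Mt1 was, and by TMM highest with high sitosterol, but by TPM highest with stigmasterol, at 7.70 against 5.86 with high sitosterol. The log2 ratios against low sitosterol were only 0.12, -0.53 and -0.14, and the last turned to 0.55 with library totals. Intervals of the low sitosterol liver overlapped those of both the high sitosterol and the stigmasterol liver. Slc30a1 (chromosome 1, 191906767 to 191913247, plus strand) shares 761 bases with an antisense gene.

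Slc30a10 encodes ZnT10, which exports manganese from hepatocytes. It lies on chromosome 1 (185454848 to 185468762, plus strand) and shares 721 bases with the noncoding gene Gm2061 on the other strand. Its levels were 10.97 scaled CPM with high sitosterol, 47.6 with ergosterol, 12.4 with stigmasterol and 26.3 with low sitosterol. The livers with the most Mt1 thus had the least Slc30a10, and the ergosterol liver had the most. Against low sitosterol it was 2.40-fold lower with high sitosterol (log2 -1.26, -1.42 to -1.11) and 2.12-fold lower with stigmasterol (log2 -1.08), while ergosterol was 1.81-fold higher (log2 0.85). With library totals these came to -1.07, -0.39 and 1.02. The ergosterol liver held 4.34-fold more than the high sitosterol liver and 3.83-fold more than the stigmasterol liver. Slc30a10 made up 17.2% of the summed TPM of 10 Slc30a genes in the ergosterol liver, against 4.91% with high sitosterol, 5.36% with stigmasterol and 9.04% with low sitosterol. Hepatocyte markers summed to 151355 scaled CPM with high sitosterol, 120641 with ergosterol, 65096 with stigmasterol and 124519 with low sitosterol. Their median was 2887 with high sitosterol, 3211 with ergosterol, 2384 with stigmasterol and 2845 with low sitosterol. The sum was thus highest with high sitosterol and the median highest with ergosterol. The part of hepatocytes in the Slc30a10 values was not tested.

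The remaining transporters were mostly level. Of the 12 other Slc39a genes 10 were analysed, that is at 1 CPM or more in at least 1 liver. Against low sitosterol 0 were higher and 1 was lower with high sitosterol (median log2 -0.30), 0 changed with ergosterol (0.10) and 0 with stigmasterol (0.14), beside medians of -0.05, 0.02 and 0.08 over all genes. The lower one was Slc39a5, a ZIP of liver and pancreas, at 10 counts in the high sitosterol liver and 83 in the low sitosterol liver. Of 8 other Slc30a genes 6 were analysed, and 1, Slc30a3, was lower with high sitosterol and with ergosterol, at 8 and 3 counts against 32. The shares of all genes past 2-fold are those given above. Slc39a8, the closest relative of Slc39a14, had 14.8 scaled CPM with high sitosterol, 23.7 with ergosterol, 15.6 with stigmasterol and 21.9 with low sitosterol.

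**Figure D5:**
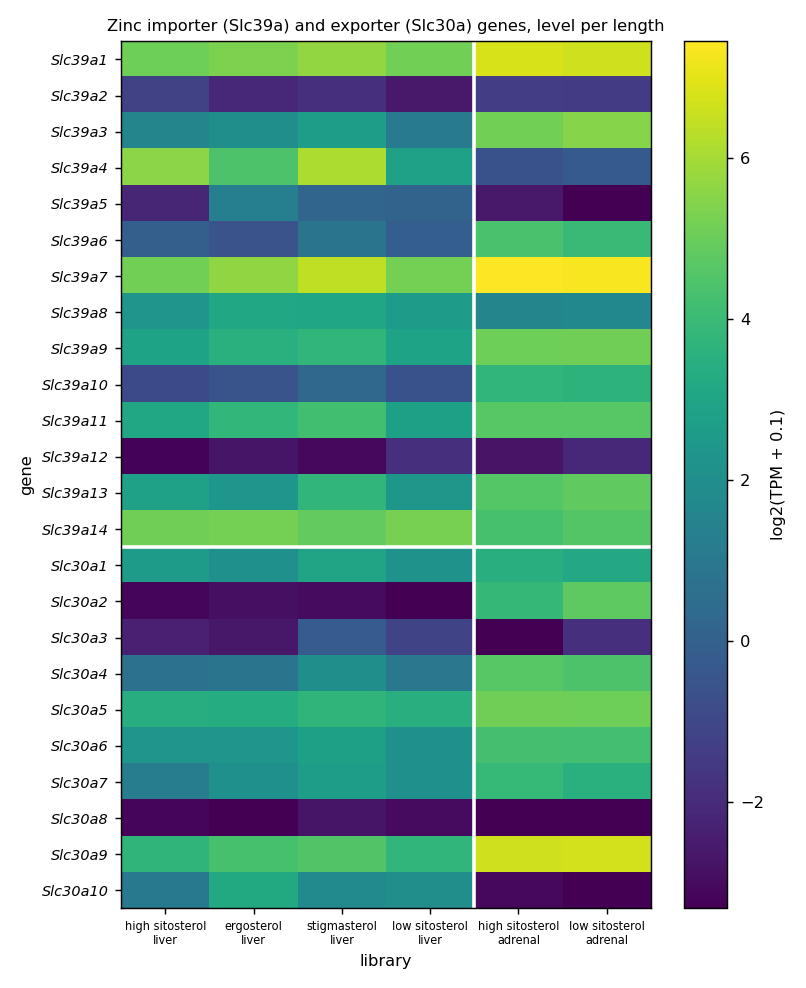
Level per length, as log2(TPM + 0.1), of 14 Slc39a genes (above the white line) and 10 Slc30a genes (below) in 4 livers and 2 adrenals. Slc39a4 stands out with high sitosterol and stigmasterol in liver and is low in adrenal, where Slc30a10 is among the darkest, at 0.0159 and 0 TPM.

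A list of MTF1 partners and targets was set beside the pair. Besides the 4 genes of the group already described, the list held Slc39a10, Selenoh, Gclc, Ndrg1, Csrp1 and Slc40a1. Of these 6, 0 were higher and 1 lower with high sitosterol (median log2 -0.09), where 8.67% and 4.3% of all genes were. With ergosterol 1 was higher and 0 lower (0.15), beside 6.05% and 5.81%. With stigmasterol 3 were higher and 0 lower (0.99), beside 21.7% and 7.79%. Nothing is read from these counts. With high sitosterol Ndrg1 stood at 5.72 scaled CPM against 11.8 with low sitosterol, the opposite direction to Mt1. Gclc, which starts glutathione synthesis, was higher with ergosterol, at 229 against 103 with low sitosterol, again opposite to Mt1. In the stigmasterol liver Csrp1 was at 46.3 against 10.5 and Ndrg1 at 36.2 against 11.8.

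Genes of related metals were counted next. Of 15 copper genes 0 were past 2-fold with high sitosterol, 3 were higher and 1 lower with ergosterol, and 3 higher and 2 lower with stigmasterol, beside the shares of all genes given above. The copper exporter Atp7b was at 23.7 scaled CPM in the ergosterol liver against 10.6 in the low sitosterol liver. Sod1, the copper and zinc superoxide dismutase, was at 549 in the stigmasterol liver against 1114 in the low sitosterol liver, and its copper chaperone Ccs at 99.4 against 219. By TPM the same livers had 1944 against 2081 of Sod1 and 183 against 213 of Ccs, so these 2-fold differences rest on the scaling. Among 12 other manganese and iron genes, hepcidin (Hamp) was at 574 scaled CPM with high sitosterol, 585 with ergosterol and 548 with stigmasterol. All 3 were lower than the 1394 with low sitosterol (with stigmasterol 4115 against 5517 by TPM). The macrophage metal transporter Slc11a1 was higher with high sitosterol and stigmasterol, at 15.6 and 14.4 against 5.37 with low sitosterol.

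Lists of other signals known to raise metallothioneins were then set beside the pair. Over all genes 8.67% were higher and 4.3% lower with high sitosterol, 6.05% and 5.81% with ergosterol, and 21.7% and 7.79% with stigmasterol. Of 16 glucocorticoid-responsive genes other than Mt1 and Mt2, 4 were higher and 2 lower with high sitosterol (median log2 0.05), 4 higher and 2 lower with ergosterol (0.11), and 4 higher and 3 lower with stigmasterol (-0.18). Fkbp5, a glucocorticoid target, was at 137 scaled CPM with high sitosterol, 27.4 with ergosterol, 32.1 with stigmasterol and 101 with low sitosterol. In the same order of livers Sds, of the same list, was at 718, 187, 383 and 302, ranked as Mt1 was. Lcn2, also in this list, was at 99.2, 2.81, 172 and 6.89. The phosphatase gene Dusp1, in the same list, was higher with ergosterol, at 110.4 against 38.5 with low sitosterol. Of 22 acute phase genes 7 were higher and 1 lower with high sitosterol (0.45), 0 higher and 4 lower with ergosterol (-0.27), and 5 higher and 6 lower with stigmasterol (0.00). Lcn2 led with high sitosterol (99.2 against 6.89) and with stigmasterol (172 against 6.89). Hp was at 7005 scaled CPM with high sitosterol, 2667 with ergosterol, 4075 with stigmasterol and 3515 with low sitosterol, the order of Mt1. In the same livers Hpx, also in that order, was at 10553, 4121, 7777 and 4799, while Fga was at 3330, 4899, 2437 and 4668. The cytokine receptor gene Il1r1 was below low sitosterol (101) in all 3, at 59.4 with high sitosterol, 26.8 with ergosterol and 23.7 with stigmasterol. Of 15 NRF2 genes 5, 3 and 6 were higher with high sitosterol, ergosterol and stigmasterol, and 0 were lower in each. The largest difference was Gsta1, a glutathione transferase gene, at 151 with stigmasterol against 0.318 with low sitosterol. Of 12 heat shock genes 6 were higher and 0 lower with high sitosterol, 0 and 2 with ergosterol, and 0 and 6 with stigmasterol. The chaperone gene Hspa1a was at 449 scaled CPM with high sitosterol, 4.11 with ergosterol, 2.35 with stigmasterol and 9.04 with low sitosterol. Hspa1b was at 793 with high sitosterol, 46.4 with ergosterol, 7.26 with stigmasterol and 74.6 with low sitosterol. The part of these signals in the metallothionein values was not tested. No list is read as particular from these counts.

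By profile over the 4 livers, Mt2 was the nearest to Mt1 of 8304 genes at 10 scaled CPM or more, but rank 5 of 13215 genes when those down to 1 scaled CPM entered. Likeness was the root mean square difference of log2 scaled CPM after centring each gene, with the limit to be reached in at least 1 liver, and it was 0.56 for Mt2. Enho (0.59), Btg3 (0.64), Cxcl14 (0.70), Cib3 (0.71), Tff3 (0.77) and Slc41a3 (0.77) were among the next. Tff3, a mucosal repair peptide, had 142 scaled CPM with high sitosterol, 7.12 with ergosterol, 25.01 with stigmasterol and 30.9 with low sitosterol. Slc39a4 ranked 196th (615th with the lower limit), Slc30a1 779th, Mtf1 4903rd, Slc39a14 5952nd and Slc30a10 8191st.

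In the adrenal gland the choice of genes used no values, although earlier results of these libraries were known. Mt1 stood at 225 scaled CPM in the high sitosterol adrenal and 87.2 in the low sitosterol adrenal, and Mt2 at 144 and 30.1. Both were higher with high sitosterol, Mt1 by 2.58-fold (log2 1.37, 1.31 to 1.42) and Mt2 by 4.78-fold (log2 2.26, 2.17 to 2.35). Their ratios exceeded those of 98.2% and 99.4% of genes. Of the 7 genes 5 reached 1 CPM in an adrenal, of which 2 were higher and 0 lower, beside 3.83% and 2.31% of 14224 genes. In liver the same contrast gave log2 2.90 and 2.86, so the direction was shared, and with 1 library a group the difference in size could not be tested.

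The transporters and Mtf1 were within 2-fold or below 1 CPM in the adrenals. Slc39a14 stood at 48.6 scaled CPM with high sitosterol and 51.5 with low sitosterol (log2 -0.08, -0.17 to 0.00), Slc30a1 at 37.7 and 30.2 (log2 0.32), and Mtf1 at 29.5 and 30.2 (log2 -0.03). Slc39a4 had 38 and 41 counts, under 1 CPM in both, and Slc30a10 had 3 and 0, at the limit of detection. Of the 9 other Slc39a genes and 6 other Slc30a genes analysed, 0 were past 2-fold, with Slc30a2 at 24.1 scaled CPM with high sitosterol against 47.2 with low sitosterol (log2 -0.97). The 6 other genes of the list of MTF1 partners and targets had 0 past 2-fold and a median of 0.11. Of 19 acute phase genes 7 were higher and 2 lower, where 3.83% and 2.31% of all genes were. Stat3 was at 329 against 109 and its feedback inhibitor Socs3 at 69.1 against 27.3. Of 12 NRF2 genes 3 were higher and 0 lower, and Srxn1, which repairs oxidised peroxiredoxins, was at 4021 against 879. Of 12 heat shock genes 0 were past 2-fold. Of 13 glucocorticoid-responsive genes other than Mt1 and Mt2, 1 was higher and 1 lower (median log2 -0.28), beside the same 3.83% and 2.31% of all genes. Macrophage markers were higher for 4 of 10 and summed to 907 scaled CPM with high sitosterol against 551 with low sitosterol, with Clec4f at 0 counts in the low sitosterol adrenal. Neutrophil markers were higher for 4 of 4 analysed (median log2 2.07) and all 8 summed to 16.3 against 4.21 scaled CPM, with Ly6g and Camp at 0 with low sitosterol. Fat cell markers ran the other way, lower for 7 of 8 and summing to 1574 against 3812 scaled CPM. The part of these signals and cell types in the metallothionein values was not tested.

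Levels in liver and adrenal were compared per length. The Y-linked pair stood at 34.7% to 49.6% of its X-linked copies in livers but at 0.0106% and 0.00811% in the adrenals. Differences of tissue therefore cannot be told apart from differences of sex or animal here. On low sitosterol, Mt1 was at 290.4 TPM in liver and 356 TPM in adrenal, and Mt2 at 190.0 and 143. On high sitosterol Mt1 was at 2590 TPM in liver and 889 TPM in adrenal, and Mt2 at 1663 and 672. Slc39a14 was higher in liver on both diets, at 34.9 against 19.9 TPM on high sitosterol and 38.1 against 23.5 TPM on low sitosterol. Slc30a10 and Slc39a4 parted most: Slc30a10 had 508 and 1077 counts in the high and low sitosterol livers against 3 and 0 in the adrenals. Slc30a1 and Mtf1 were lower in liver by TPM, at 4.48 against 8.82 and 3.23 against 12.6 on low sitosterol. By scaled CPM over all 6 libraries 6 of the 7 genes were higher in liver on low sitosterol and 5 on high sitosterol, where 22.4% and 22.6% of all genes were, and 0 were lower, where 34.9% and 32% were. The median of all genes moved from -0.31 to -2.19 on the low sitosterol pair between that scale and log2(TPM + 0.1), so these directions depend on the scale.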

How the data were processed

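The authors deposited estimated counts per gene symbol and TPM values for the same 6 libraries. Per the labels' protocols, RNA was extracted with the Qiagen RNeasy kit and sequenced as libraries from Illumina's TruSeq RNA v2 kit. Per the submitters' processing notes, mm10, kallisto 0.43.1, HISAT2 2.0.5 and Trimmomatic 0.33 were used, in roles and an order that are not stated. Their annotation is not given in the sources used here. One row that names no gene held 0 counts and was left out.

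Estimated counts were rounded to whole numbers and scaled with TMM factors (edgeR 4.0.16, R 4.3.3) within each tissue, or over all 6 libraries for comparisons of tissues. Analysis kept genes that reached 1 CPM in any library of the tissue, 13378 in liver and 14224 in adrenal. Log2 ratios used a prior count of 0.5 and have exact conditional binomial 95% intervals (SciPy 1.17.1), tested on simulated data. With 1 library per group no test was made. PCR copies of a molecule are counted more than once, so intervals and limits cover counting error only. The genes and lists were chosen with earlier results of these data known. Genes were named by a fixed rule: the 7 genes, in each list the largest ratios, up to 4, among genes at 10 scaled CPM or more, the 8 profiles nearest to Mt1 and 3 neighbours on each side of the cluster. Not every gene that the rule gives is printed. Genes outside it (Slc39a5, Slc30a3, and list members used as single values) were chosen after their values were seen. Coordinates come from GENCODE M21 (GRCm38, the build mm10), which matched 32158 of the symbols, and promoter windows from RefSeq. Alternatives were other scalings, TPM, another prior count, no filter and other fold limits.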

Additional observations from a re-analysis of the deposited data

How the results depend on the processing

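No paired analysis was possible because each group has 1 library, and for the same reason no library could be left out in turn. Of 366 values of the 7 genes under alternatives, 330 kept their call and 36 did not. Mt1, Mt2 and Slc39a4 kept their direction and stayed past 2-fold against the low sitosterol liver under library totals, median-of-ratios factors and TPM. Slc30a10 with high sitosterol fell short of 2-fold with log2(TPM + 0.1), at -0.96. So did Slc30a10 and Slc39a14 with stigmasterol, at -0.16 and -0.38. Slc30a10 with ergosterol went past 2-fold on that scale, at 1.23. Between tissues on low sitosterol, Mt1 turned to -0.29 with log2(TPM + 0.1) and with log2(TPM + 1), and Slc30a1 to -0.42 with library totals, -0.96 with log2(TPM + 0.1) and -0.84 with log2(TPM + 1). The cause was not tested.

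Counts of genes past the limit in liver, relative to low sitosterol, were 1735 with high sitosterol, 1586 with ergosterol and 3945 with stigmasterol. For stigmasterol and ergosterol against high sitosterol they were 2952 and 2025, for ergosterol against stigmasterol 3543, for the adrenals 873, and for liver against adrenal 8665 on low and 8254 on high sitosterol. In the order of these comparisons, a 1.5-fold limit gave 3136, 3539, 6271, 5181, 4338, 5671 and 2467 for all but the tissues, and a 4-fold limit gave 558, 434, 1714, 1153, 530, 1591, 164, 5081 and 4815. With log2(TPM + 1), high sitosterol and ergosterol against low sitosterol gave 714 and 866, ergosterol against high sitosterol 989 and the adrenals 468. With log2(TPM + 0.1), stigmasterol gave 6534 against low and 4666 against high sitosterol. With no filter on low counts, high sitosterol gave 2736, ergosterol 2422 and the adrenals 1716. The share of higher calls moved with library totals to 78.4% from 66.9% for high sitosterol, to 65.1% from 51.0% for ergosterol and to 92.9% from 73.6% for stigmasterol against low sitosterol, and the median of all genes moved to 0.15, 0.18 and 0.77. Of the 8 profiles nearest to Mt1, 2 were shared when genes down to 1 scaled CPM entered.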

Other observations

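The profile of Slc39a4 over the 4 livers, examined after its values were seen, was nearest to those of 2010003K11Rik (root mean square difference of centred log2 scaled CPM 0.10), the ubiquitin ligase gene Rnf145 (0.13), Plk2 (0.14), Spi1, which encodes the myeloid factor PU.1 (0.15), Slc3a1 (0.15) and the macrophage gene Cd68 (0.16). Mt1 ranked 7376th of 8304 genes by that measure, at 1.34. At the same distance Slc39a4 ranked 196th among the genes nearest to Mt1. The measure counts the size of the differences between livers too, so these ranks are not ranks of shape alone. Cd68 stood at 35.3 scaled CPM with high sitosterol, 12.0 with ergosterol, 28.2 with stigmasterol and 6.86 with low sitosterol. The Kupffer cell gene Clec4f did not run in that order, at 218, 131, 24.1 and 79.5.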
